A study of Mus musculus with 4 samples.

Results

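The choroid plexus genes described here are Ttr, Clic6, Slc15a2, Folr1, Kcnj13, Kl, Enpp2 and Aqp1, 8 of the 24971 genes counted in RNA from E12.5 mouse neural tubes. They are known genes of choroid plexus epithelium and were chosen by measured values: Ttr, Clic6 and Slc15a2 had fewer scaled counts in the library labelled Lbx1Δ/Δ than in the WT library of the same number. The differences between genotypes given below therefore describe that choice and are not tests of it. The 4 libraries, all of the C57BL/6 background, were 2 of neural tubes labelled WT and 2 of neural tubes labelled Lbx1Δ/Δ. Tubes of 1 genotype from 1 litter were pooled for each library, and no treatment is named for either group. The sources used here do not say which part of Lbx1 the Δ allele lacks, which levels of the neuraxis were dissected, or whether libraries of the same number shared a litter. They are called WT 1, WT 2, Lbx1Δ/Δ 1 and Lbx1Δ/Δ 2.

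The choroid plexus is a sheet of secretory epithelium over a vascular stroma that makes cerebrospinal fluid. It arises from the dorsal midline of the brain ventricles, first at the roof of the hindbrain, and the spinal cord forms none. Its cells secrete carrier proteins such as transthyretin and carry dense sets of ion, water, peptide and vitamin transporters, and Ttr is among the earliest genes that mark them. Several of these genes are also used elsewhere: Ttr in liver and yolk sac, Kcnj13 in retinal pigment epithelium, Aqp1 in red cells and endothelium, and Kl and Slc15a2 in kidney tubules.

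Total counts ran from 16853984 to 20579803 per library, and levels are given as CPM, counts scaled to the TMM-adjusted library total. A count of 0 allowed a level of at most 0.147 to 0.177 CPM (3 counts). Neural markers were present in every library, with Sox2 at 257 to 298 CPM and Nes at 998 to 1185 CPM. Lbx1 itself was at 40.1 CPM in WT 1, 81.6 in WT 2, 114 in Lbx1Δ/Δ 1 and 381 in Lbx1Δ/Δ 2. It was thus higher under the mutant label, it offers no check of genotype while the deleted part is unknown, and every direction below is between libraries as labelled. Nothing states that the pools were independent beyond their numbers, so p-values measure only the spread between these libraries. That spread is estimated in part from other genes. In pooled tissue, fewer cells of a type and less RNA per cell cannot be told apart.

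Of the 8 genes, 6 passed the filter on low counts. Folr1, the folate receptor of the choroid plexus, was listed at 0 in all libraries over its 4 RefSeq accessions, and Enpp2, the secreted enzyme autotaxin that makes lysophosphatidic acid, had 1 count in WT 2 and 0 elsewhere over its 4 accessions. These values give no level. Pax6, a gene of neural progenitors with 8 accessions, and Pecam1, a gene of endothelium with 4, were also listed at 0 in the same libraries. Among all genes counted, 38.9% of the 7924 genes with several accessions had 0 counts in all 4 libraries, against 30.2% of 17047 genes with 1. Slc15a2 was counted on 1 of its 2 accessions only and may be counted in part. The other 5 genes, Ttr, Clic6, Kcnj13, Kl and Aqp1, have 1 accession each.

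RefSeq promoter sequence (build GRCm38) was at hand for 4 of the 8 genes. The 250 bases before the start are shown for the 3 of them that were lower within both numbers, the measure that chose the set, so that a reader can see the letters there. Letters in capitals mark any match, on either strand, to TAATCC (the core bound by OTX homeodomain factors, which specify choroid plexus), TAAACA (a forkhead core, the family of Foxj1), GTTGCC (an RFX half-site, a family of cilia gene regulators) or TATAAA (the TATA box).
Kcnj13, chr1:87394730-87394979, minus strand: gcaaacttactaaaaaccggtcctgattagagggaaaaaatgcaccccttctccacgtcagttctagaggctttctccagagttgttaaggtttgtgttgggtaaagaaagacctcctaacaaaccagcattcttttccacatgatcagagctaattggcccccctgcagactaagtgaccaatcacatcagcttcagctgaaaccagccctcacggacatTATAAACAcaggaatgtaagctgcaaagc
Slc15a2, chr16:36784963-36785212, minus strand: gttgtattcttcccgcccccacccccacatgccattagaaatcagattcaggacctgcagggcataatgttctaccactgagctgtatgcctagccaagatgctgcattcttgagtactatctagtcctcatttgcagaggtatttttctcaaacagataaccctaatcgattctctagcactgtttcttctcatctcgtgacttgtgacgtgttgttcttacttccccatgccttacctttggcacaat
Aqp1, chr6:55336049-55336298, plus strand: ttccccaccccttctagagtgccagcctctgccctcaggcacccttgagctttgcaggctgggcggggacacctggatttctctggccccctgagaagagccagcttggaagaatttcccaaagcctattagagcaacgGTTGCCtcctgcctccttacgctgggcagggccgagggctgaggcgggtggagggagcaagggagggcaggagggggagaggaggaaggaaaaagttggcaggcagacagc
Kcnj13 held a TATAAA that begins 29 bases before the start and overlaps a TAAACA that begins 27 bases before it. Aqp1 held a GTTGCC 111 bases before the start, and Slc15a2 held none of the 4 motifs. Of 32851 promoter windows of this length, 6.25% held TAATCC, 10.4% GTTGCC and 12.4% TATAAA, and 3952 of them held TAAACA. A match is a description of the letters and not of a bound site.

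Ttr encodes transthyretin, the carrier of thyroid hormone and retinol-binding protein that the choroid plexus secretes. It was at 143 CPM in WT 1 and 15.6 CPM in WT 2, and at 36.3 CPM in Lbx1Δ/Δ 1 and 0.878 CPM in Lbx1Δ/Δ 2. The last value rests on 15 counts, with an exact 95% Poisson interval of 0.491 to 1.45 CPM that covers counting error only. The highest library was 163-fold above the lowest. Within number 1 the WT library was 3.94-fold above the mutant-labelled one and within number 2 it was 17.7-fold above, but the groups overlapped, since Lbx1Δ/Δ 1 stood above WT 2. The WT mean was 79.3 ± 90.2 CPM (SD, n = 2) and the mutant-labelled mean 18.6 ± 25.0 CPM (SD, n = 2), with a fitted log2 difference of −2.09 (SE 1.73). That value was 0.28 without WT 1 and −6.47 without Lbx1Δ/Δ 1.

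Clic6, a member of the chloride intracellular channel family, followed the same order of libraries. It was at 26.6 and 3.43 CPM in WT 1 and WT 2, and at 8.11 and 1.11 CPM in Lbx1Δ/Δ 1 and Lbx1Δ/Δ 2. WT was 3.27-fold above the mutant-labelled library within number 1 and 3.09-fold above it within number 2, and again Lbx1Δ/Δ 1 exceeded WT 2. The fitted log2 difference was −1.70 (SE 1.28), which was 0.44 without WT 1. The count of Ttr was 5.39, 4.53 and 4.47 times that of Clic6 in WT 1, WT 2 and Lbx1Δ/Δ 1, and 0.789 times in Lbx1Δ/Δ 2. The pair thus kept close to 1 ratio in the first 3 libraries and not in the last.

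Slc15a2 encodes PEPT2, the transporter that takes up small peptides. Its level was 15.8 CPM in WT 1, 18.0 in WT 2, 4.73 in Lbx1Δ/Δ 1 and 6.79 in Lbx1Δ/Δ 2. Unlike Ttr and Clic6, its groups did not overlap. The WT mean of 16.9 ± 1.57 CPM (SD, n = 2) stood against 5.76 ± 1.46 CPM (SD, n = 2) under the mutant label, a fitted 2.94-fold difference (log2 −1.56, SE 0.31), and the log2 value stayed between −1.84 and −1.30 under all 12 alternatives tried. The differences within numbers 1 and 2, which chose this gene, were −1.74 and −1.41 on the log2 scale. The gap between its groups and its steady log2 value follow in part from that choice and do not test it.

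Aqp1, the apical water channel of the choroid plexus, had levels of 18.6 CPM in WT 1, 13.7 in WT 2, 10.7 in Lbx1Δ/Δ 1 and 8.95 in Lbx1Δ/Δ 2. Its groups did not overlap either, at a fitted log2 difference of −0.72 (SE 0.29), which was −0.46 without WT 1. Over all tested genes, 10.0% had both mutant-labelled libraries below both WT libraries, and 2 of the 6 choroid plexus genes did. Slc15a2, among those 2, was chosen on its differences between genotypes, so the 2 of 6 is not a result about the set. Kcnj13, the apical inward rectifier potassium channel Kir7.1, was a low-count gene at 1.62 CPM in WT 1, 0.651 in WT 2, 0.700 in Lbx1Δ/Δ 1 and 0.293 in Lbx1Δ/Δ 2. Those levels rest on 33, 11, 12 and 5 counts. Its fitted log2 difference was −1.19 (SE 0.74), and WT 2 and Lbx1Δ/Δ 1 were nearly level. Without WT 1 the log2 value was −0.37, and without Lbx1Δ/Δ 1 it was −1.93.

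Kl encodes klotho, the co-receptor for the hormone FGF23 and also a shed protein of cerebrospinal fluid. Its counts were 11 and 18 in WT 1 and WT 2, and 0 and 23 in Lbx1Δ/Δ 1 and Lbx1Δ/Δ 2. Within number 1, WT 1 was at 0.539 CPM and Lbx1Δ/Δ 1 at 0 counts. With 3 counts taken for that 0, Lbx1Δ/Δ 1 was 3.08-fold lower. That fold is not a lower limit, since it leaves out the counting error of WT 1. The exact Poisson interval of WT 1 was 0.269 to 0.964 CPM. Within number 2 the mutant-labelled library was the higher, at 1.35 against 1.06 CPM. Kl was the only one of the 6 genes that was not lower within both numbers. Of all tested genes 30.9% were lower within both, and because that measure chose the set, the 5 of 6 is not a result about it.

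**Figure D1:**
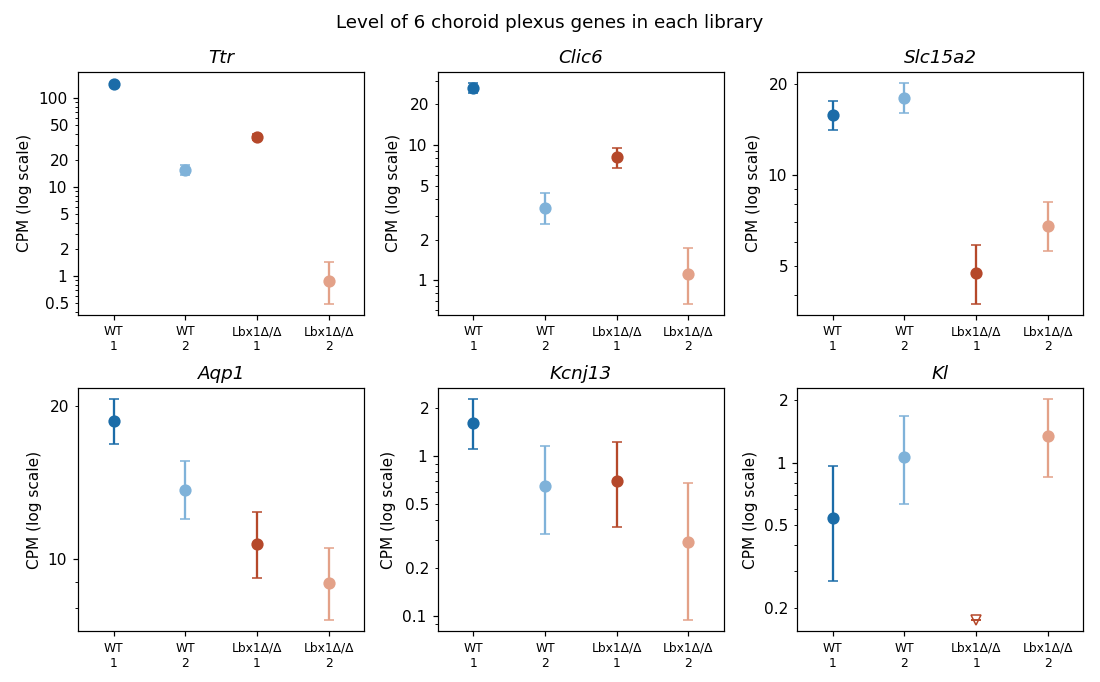
Level of each of the 6 countable choroid plexus genes in CPM (log axis) by library, with exact 95% Poisson intervals of the counts as bars; the open triangle marks the upper limit for Kl at 0 counts. Ttr spans 0.878 to 143 CPM and overlaps between genotypes, while Slc15a2 and Aqp1 separate WT from Lbx1Δ/Δ-labelled libraries.

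**Figure D2:**
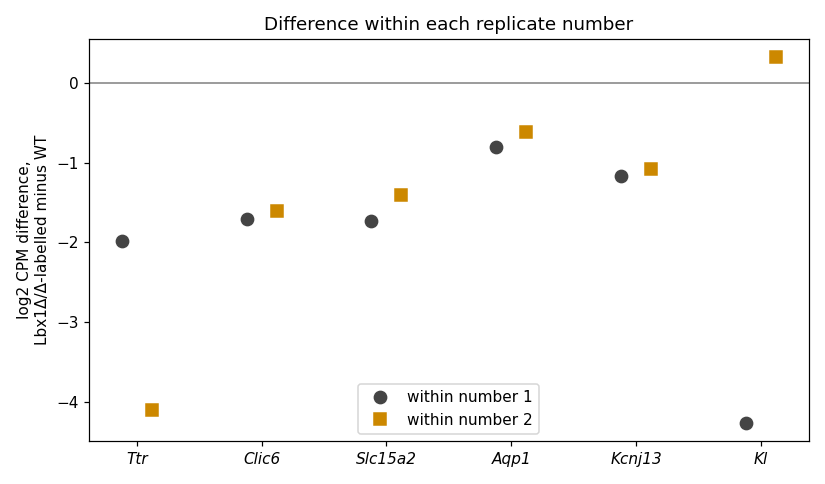
Difference in log2 CPM (0.5 counts added) between the library labelled Lbx1Δ/Δ and the WT library of the same number, 1 point per number and gene. All genes except Kl lie below 0 in both numbers, and the 2 values of Ttr, −1.98 and −4.10, are the farthest apart among those genes.

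Across all 10757 tested genes, 0 (0%) passed edgeR's quasi-likelihood test of genotype at a Benjamini-Hochberg adjusted p of 0.05, in either direction. An unadjusted p below 0.05 was reached by 55 genes, and DESeq2 and limma-voom called 0 genes each.

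Levels were compared between genes per kilobase of transcript. In WT 1 Ttr led at 121 CPM per kilobase, Aqp1 and Clic6 followed almost level at 7.09 and 7.07, and Slc15a2, Kcnj13 and Kl were at 3.96, 1.27 and 0.105. In Lbx1Δ/Δ 2 the order was different, with Aqp1 first at 3.41 CPM per kilobase and Slc15a2 next at 1.70. Ttr came after both there at 0.740, and Clic6, Kl and Kcnj13 were at 0.296, 0.263 and 0.230. Ttr was the most abundant of the set in WT 1, Lbx1Δ/Δ 1 (30.6 CPM per kilobase) and WT 2 (13.1), but not in the library where it was lowest.

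The difference between libraries numbered 2 and 1, with genotype in the model, was a measure that did not choose the genes. Ttr was 13.9-fold lower in the libraries numbered 2 (log2 −3.79, SE 0.28, edgeR adjusted p = 9.56e-08), by 9.19-fold between the WT libraries and by 41.4-fold between the mutant-labelled ones. Clic6 was 7.55-fold lower (log2 −2.92, SE 0.23, edgeR adjusted p = 1.76e-07), by 7.74-fold and 7.30-fold in the separate genotypes. The edgeR SE of Ttr was worked back from the test statistic and draws on spread shared across genes. This SE does not cover the distance between the 9.19-fold and 41.4-fold of Ttr. DESeq2 gave log2 −4.25 (SE 0.95, DESeq2 adjusted p = 8.12e-05) for Ttr and −2.92 (SE 0.37, DESeq2 adjusted p = 3.15e-13) for Clic6. In the ranking of all tested genes from the most lowered, Ttr was at place 14 and Clic6 at place 33. Number also separated a large part of all genes, since 35.6% of those tested passed, 17.8% lower and 17.8% higher in number 2.

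Kcnj13 had the same order of libraries as Ttr and was lower in number 2 by 2.48-fold between the WT libraries and 2.39-fold between the mutant-labelled ones, at place 315 of that ranking, but on 5 to 33 counts it did not pass (log2 −1.28, SE 0.58, edgeR adjusted p = 0.103). Kl was higher in number 2 (log2 2.20, SE 0.80, edgeR adjusted p = 0.0427) on counts of at most 23, a call that was lost under RLE scaling (edgeR adjusted p = 0.0522). Slc15a2 had a log2 difference of 0.33 (SE 0.20, edgeR adjusted p = 0.208) and Aqp1 of −0.36 (SE 0.18, adjusted p = 0.141), neither past the threshold. Thus 3 of the 6 tested genes passed, against 35.6% of all genes. Whether the number difference itself differed between these genes was not tested. The calls of Ttr and Clic6 were lost when either library numbered 1 was left out. Without WT 1, in a fit with no genotype term, Ttr was at −2.16 (edgeR adjusted p = 0.332) and Clic6 at −1.85 (edgeR adjusted p = 0.176), and without Lbx1Δ/Δ 1 they were at −4.12 (edgeR adjusted p = 0.102) and −3.54 (edgeR adjusted p = 0.0663). Those fits called 1 and 6 genes in all, and in each of them all 35 calls between numbers of the single genes tested and named here were lost.

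A wider list of 33 other genes of choroid plexus epithelium gave 22 that could be tested, 20 of its 21 genes with 1 accession and 2 of its 12 with several. Otx2, the homeodomain factor that specifies the plexus, has 6 accessions and had a single count in WT 1, so it gives no level. In the libraries numbered 2, 9 of the 22 genes were lower and 2 higher past the threshold, with a median log2 difference of −0.37, against 17.8% in each direction and a median of 0.00014 over all genes. Without WT 1 or without Lbx1Δ/Δ 1, 0 of the list were called in edgeR.

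Slc4a5, a sodium bicarbonate cotransporter of the plexus, had the Ttr order of libraries, with 194 and 51 counts in WT 1 and WT 2 and 103 and 17 in Lbx1Δ/Δ 1 and Lbx1Δ/Δ 2. It was 4.11-fold lower in number 2 (edgeR adjusted p = 0.000118). Cldn3, a tight junction claudin, had 63, 16, 47 and 4 counts in the same order of libraries and was 5.20-fold lower in number 2 (edgeR adjusted p = 0.00169). Krt18, a keratin of simple epithelia found well beyond the plexus, was 4.11-fold lower (edgeR adjusted p = 6.44e-06), and its partner Krt8 was 2.72-fold lower. Sostdc1 (a secreted BMP and Wnt antagonist), Cldn1, Wfdc2, Igf2 and the cotransporter Slc12a2 were also lower, by 1.31-fold to 3.60-fold. With no genotype term in the fit, the calls of Cldn1 (edgeR adjusted p = 0.0613) and Slc12a2 (edgeR adjusted p = 0.0558) were lost. The amine transporter Slc29a4 and Ecrg4, which encodes a secreted peptide precursor, were higher in number 2, by 1.82-fold and 2.66-fold.

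Between the genotypes, 17 of these 22 genes had lower and 5 higher fitted values in the libraries labelled Lbx1Δ/Δ, with a median log2 difference of −0.25, against 50.5% lower and a median of −0.0026 over all genes. Within both numbers 11 were lower and 3 higher, beside 30.9% of all genes lower within both. The medians were −0.20 within number 1 and −0.095 within number 2. No gene of the list passed the edgeR genotype test (0 of 22, with 0 at an unadjusted p below 0.05), and DESeq2 and limma-voom called 0. Blocking on the replicate number in edgeR gave 1 call of 22, beside 92 of all 10757 tested genes.

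**Figure D3:**
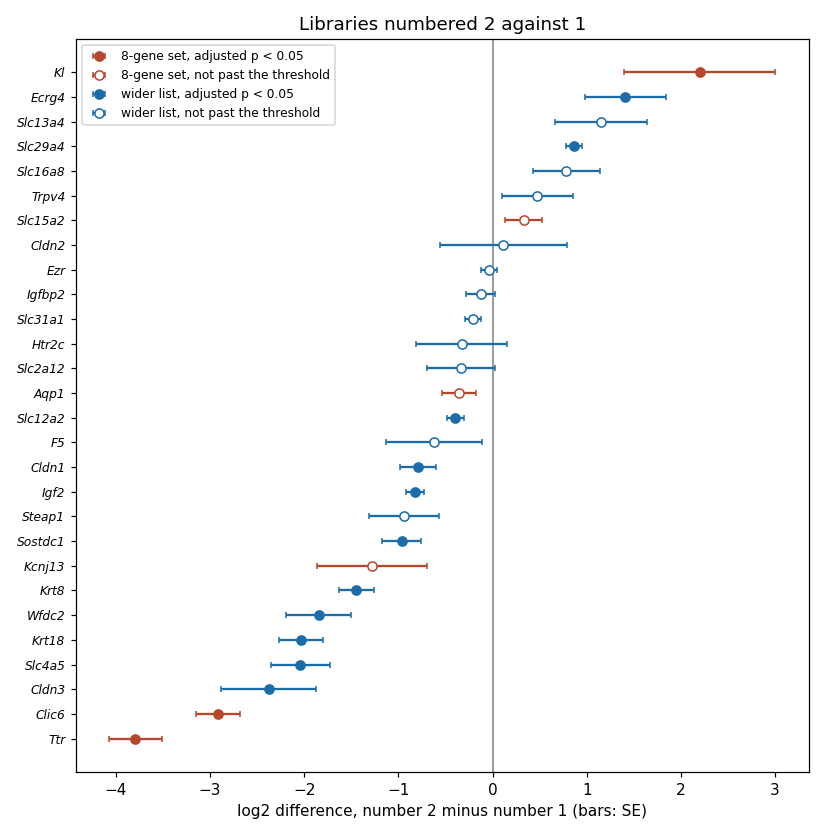
Log2 difference between libraries numbered 2 and 1 (points) for the 6 countable choroid plexus genes and the 22 tested genes of the wider list. Bars are the SE worked back from the edgeR test, and filled points pass an edgeR adjusted p of 0.05. Ttr and Clic6 lie lowest, and Slc15a2 and Aqp1 lie near 0.

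Genes of the multiciliated programme, which choroid plexus cells switch on as they differentiate, could be tested for 6 of 13. Ccno, a cyclin-like factor of centriole amplification, had counts of 61 and 4 in WT 1 and WT 2 and 16 and 2 in Lbx1Δ/Δ 1 and Lbx1Δ/Δ 2, the order of Ttr. It was lower in number 2 (log2 −3.38, SE 0.64, edgeR adjusted p = 0.000659), as was Mcidas, an upstream regulator of that programme, with 25 counts in WT 1, 16 in Lbx1Δ/Δ 1 and 4 in each library numbered 2 (log2 −2.16, SE 0.67, edgeR adjusted p = 0.019). These were the 2 of the 6 that passed in this contrast, where 17.8% of all genes were called lower and 17.8% higher. Foxj1, the master factor of motile cilia, which floor plate and ependymal lineages also use, had 483 counts in WT 1, 406 in WT 2, 273 in Lbx1Δ/Δ 1 and 496 in Lbx1Δ/Δ 2 and did not pass (log2 0.44, SE 0.19, edgeR adjusted p = 0.0801). No gene of this list passed the genotype test in edgeR (0 of 6, with 0 at an unadjusted p below 0.05), DESeq2 or limma-voom.

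Roof plate and dorsal midline genes, which mark the tissue that gives rise to the plexus and also line the spinal cord, were lower in number 2 for 5 of 11 tested and higher for 1, beside 17.8% of all genes in each direction. Lmx1a, a roof plate factor, had 16.7 CPM in WT 1, 14.8 in Lbx1Δ/Δ 1, 6.33 in WT 2 and 4.62 in Lbx1Δ/Δ 2 (number log2 −1.53, SE 0.20, edgeR adjusted p = 2.39e-05). The Wnt amplifiers Rspo1 and Rspo3 and the homeobox genes Msx1 and Msx2 were lower in number 2 by 1.98-fold to 3.11-fold. Within numbers 1 and 2 the mutant-labelled library differed from WT by −0.17 and −0.45 for Lmx1a on the log2 scale. No gene of the list passed the genotype test in edgeR (0 of 11, with 0 at an unadjusted p below 0.05), DESeq2 or limma-voom.

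Markers of other tissues that share these genes were set beside them. Alb and Afp, the defining secreted proteins of liver and yolk sac, went the other way from Ttr. Alb had 17 and 89 counts in WT 1 and WT 2 and 54 and 230 in Lbx1Δ/Δ 1 and Lbx1Δ/Δ 2, so it was lowest where Ttr was highest and highest where Ttr was lowest. Apoa1 had 5 to 9 counts per library. Summed over the 19 genes of that list, levels were 128 CPM in WT 1, 129 in Lbx1Δ/Δ 1, 193 in WT 2 and 238 in Lbx1Δ/Δ 2. Most of that sum was Vtn (87.6 to 171 CPM) and Trf (27.8 to 39.3 CPM), which neural and other tissues also express. The part of liver or yolk sac in the Ttr values was not tested. Rpe65, which defines retinal pigment epithelium, was at 0 counts in all 4 libraries with 1 accession, and Tyr, with 2 accessions, was listed at 0. The pigment cell genes Dct and Pmel, which melanoblasts also express, had 106 and 93 counts in WT 1, and 3 of the 4 tested genes of that list were lower in number 2, beside 17.8% of all genes. The summed pigment list ran from 4.56 CPM in Lbx1Δ/Δ 2 to 16.7 CPM in Lbx1Δ/Δ 1.

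Aqp1 can come from vessels and red cells. Cdh5, a cadherin of endothelium, ran only from 162 to 194 CPM per library, and the summed endothelial list ran only from 480 to 533 CPM. Of the 5 tested genes of that list, 0 were lower and 1 higher in number 2, beside 17.8% of all genes in each direction. Cldn5 was 1.43-fold higher there, at 51.9 to 86.0 CPM. Erythroid genes moved with the number, and all 8 tested were lower in number 2 (17.8% of all genes were), among them the embryonic globin Hbb-y by 2.05-fold. Their sum was 8445 and 2838 CPM in WT 1 and WT 2 and 6043 and 2607 CPM in Lbx1Δ/Δ 1 and Lbx1Δ/Δ 2, an order that Aqp1 did not have. The part of either tissue in the Aqp1 values was not tested. For kidney tubule, Umod was listed at 0 with 2 accessions, Slc34a1 had 4 to 8 counts, and the summed list was at 81.0 to 133 CPM. Pax8, which the neural tube also expresses, was the largest part of that sum, at 39.3 to 103 CPM. Of the 3 tested genes of the list, 1 was lower and 1 higher in number 2, beside 17.8% of all genes in each direction. Emx2 was 20.1-fold lower there, at 0.351 to 25.4 CPM, and Pax8 was 2.48-fold higher.

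Genes of the brain, where the plexus forms, were also read. Six3, a factor of the rostral forebrain and eye, had 33 and 0 counts in WT 1 and WT 2 and 12 and 3 in Lbx1Δ/Δ 1 and Lbx1Δ/Δ 2, and was lower in number 2 (log2 −3.55, SE 0.92, edgeR adjusted p = 0.00665). It was 1 of 2 tested genes of the forebrain and midbrain list, and the other was called higher in number 2. The summed list did not follow, at 22.3 CPM in WT 1, 28.1 in Lbx1Δ/Δ 1, 28.2 in WT 2 and 38.8 in Lbx1Δ/Δ 2, most of it Barhl2, which dorsal spinal neurons also express. The hindbrain list, which includes genes of spinal cord, had 1 gene lower and 2 higher in number 2 of 9 tested, and its sums ran from 340 to 448 CPM. The mesenchyme and meninges list had 6 of 12 genes lower and 1 higher in number 2, and its sum was highest in WT 1 (6872 CPM) and lowest in Lbx1Δ/Δ 2 (4489 CPM), as for Ttr. All these counts stand beside 17.8% of all genes called lower and 17.8% called higher. Genes of neural tube cells were higher in number 2 for 6 of 9, with sums of 4767 CPM in WT 1, 5102 in Lbx1Δ/Δ 1, 7242 in WT 2 and 8190 in Lbx1Δ/Δ 2. The part of dissection level or adjoining tissue in the values of Ttr and Clic6 was not tested. No gene of these 9 lists was called for genotype by edgeR without a block (0 genes, with 0 at an unadjusted p below 0.05), DESeq2 or limma-voom. With the replicate number as a block, edgeR called 2 of 12 tested mesenchyme genes and 1 of 7 tested liver genes, beside 92 of all 10757.

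**Figure D4:**
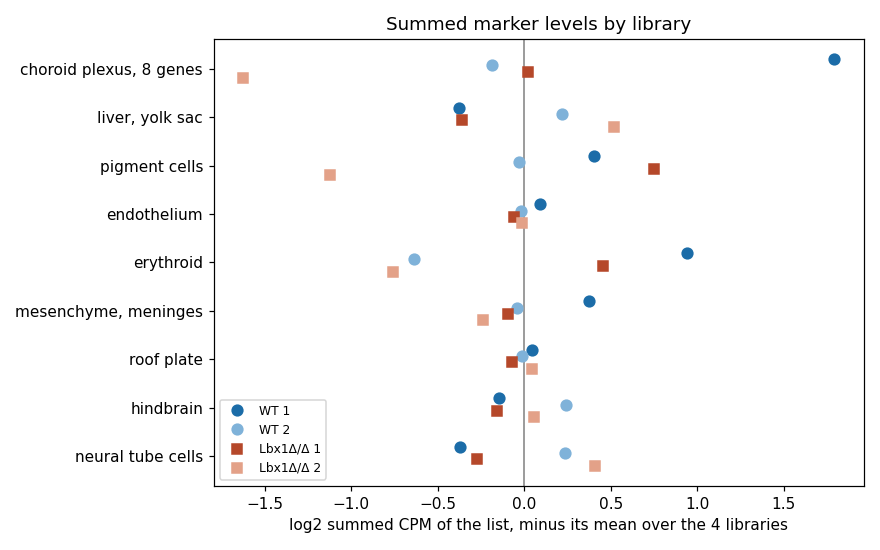
Summed CPM of each marker list by library, as log2 minus the mean of the list over the 4 libraries. The 8 choroid plexus genes spread most among the lists drawn, with WT 1 highest and Lbx1Δ/Δ 2 lowest. Of these, Ttr, Clic6 and Slc15a2 were chosen on differences between these libraries, so the spread and order follow in part from that choice. That spread rests largely on Ttr, which was 143 of 206 CPM in WT 1 and 0.878 of 19.4 CPM in Lbx1Δ/Δ 2. The endothelial list is nearly flat, and the liver list, mostly Vtn and Trf, has Lbx1Δ/Δ 2 highest.

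The genes whose library profile lay closest to that of Ttr were sought among 7485 genes of at least 5 CPM on average, by the root mean square difference of log2 CPM centred on each gene's mean over the 4 libraries. The 8 closest were Emx2 (0.84), Wt1 (0.98), Dmrt2 (1.10), Six2 (1.11), Pitx1 (1.12), Clic6 (1.12), Klhl31 (1.13) and Alx4 (1.26). Emx2, a homeobox gene of dorsal forebrain and urogenital tissue, had 518 and 34 counts in WT 1 and WT 2 and 333 and 6 in Lbx1Δ/Δ 1 and Lbx1Δ/Δ 2. Wt1, of mesothelium and urogenital tissue, had 436 counts in WT 1, 177 in Lbx1Δ/Δ 1, 129 in WT 2 and 14 in Lbx1Δ/Δ 2. Six2, Pitx1 and Alx4 are homeobox genes of mesenchyme outside the neural tube, and Klhl31 is a gene of skeletal muscle. Aqp1 was at place 622 and Slc15a2 at place 1528 of the same ranking, and Kcnj13 and Kl were below its minimum level. With 4 libraries such likeness is a description only.

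**Figure D5:**
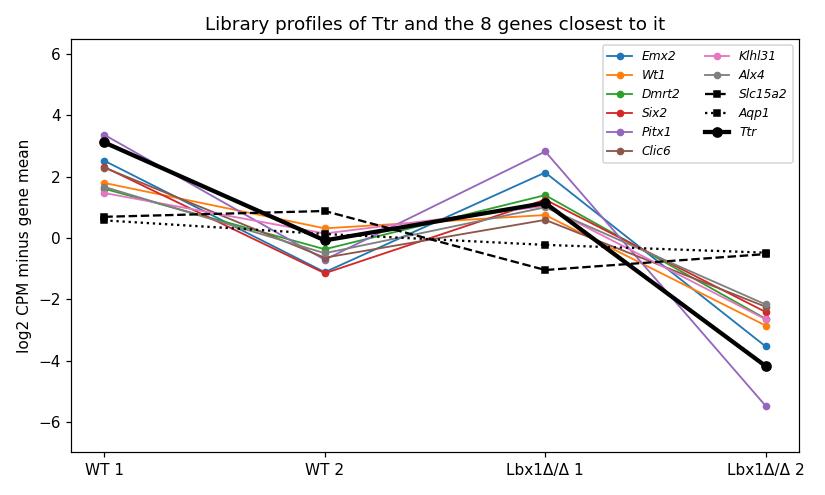
Log2 CPM minus the gene's mean over the 4 libraries for Ttr (thick line), its 8 closest genes, Slc15a2 (dashed) and Aqp1 (dotted); lines join the libraries of 1 gene only for legibility. The closest genes share the high WT 1 and low Lbx1Δ/Δ 2 values of Ttr, and Slc15a2 does not.

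Genes that work with the choroid plexus proteins were read from 5 further lists, and none of their genes was called for genotype by edgeR (0 genes, with 0 at an unadjusted p below 0.05), DESeq2 or limma-voom. Their counts between numbers stand beside 17.8% of all genes called lower and 17.8% called higher. Of 9 tested genes of thyroid hormone and retinol carriage, 3 were lower and 2 higher in number 2. Dio2, which activates thyroid hormone, was 2.77-fold lower there and the thyroid hormone binder Crym 2.17-fold lower, while the receptor gene Thra was 2.16-fold higher. Rbp4, the retinol carrier that transthyretin binds, has 2 accessions and had 1 count in all. Of 7 tested genes of folate uptake and one-carbon metabolism, 6 were lower and 1 higher in number 2, among them Mthfd1, an enzyme of one-carbon metabolism, by 1.61-fold. Within both numbers 0 of these 7 were lower in the libraries labelled Lbx1Δ/Δ, beside 30.9% of all genes.

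For lysophosphatidic acid, the product of Enpp2, 2 of 5 tested genes were lower in number 2 and 0 higher. Of the klotho and FGF receptor partners, 1 of 4 tested was lower in number 2 and 0 higher, and Fgf23 had 4 counts in WT 1, 12 in Lbx1Δ/Δ 2 and 0 in the other two. Of 11 tested relatives of the transporters and channels, 3 were lower and 3 higher in number 2. Aqp3, a glycerol and water channel of epithelia, was 3.31-fold lower there, and Aqp5, a water channel of glands, 3.32-fold higher. Among these relatives 4 had lower and 7 higher fitted values in the libraries labelled Lbx1Δ/Δ, with a median log2 difference of 0.036.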

How the data were processed

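RNA from pooled E12.5 mouse neural tubes was sequenced (NEBNext Ultra, Illumina HiSeq). The deposited values are raw read counts per RefSeq accession, which the authors made with TopHat2 2.1.1 on mm9 and featureCounts 4.6.0.1, with edgeR 3.4.3 also named, per the submitters' processing notes. Not given in the sources used here were the annotation, the strand setting and the treatment of reads shared between accessions. Where shared reads were dropped, genes with several accessions would be undercounted.

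Counts were summed per gene symbol. Of 41411 accessions, 41218 were named from the RefSeq table (GRCm38.p6) and 97 from GENCODE M21, and 96 stayed unnamed. Genes passing edgeR's filterByExpr (10757) were scaled by TMM and tested two-sided with edgeR 4.0.16 (quasi-likelihood, Benjamini-Hochberg, threshold 0.05) for genotype, and for library number with genotype as covariate. Alternatives were RLE scaling, library totals, other count filters, DESeq2 1.42.0, limma-voom (limma 3.58.1), 1 accession per gene, other covariates and leaving out each library. The scripts were tested on simulated data. Each edgeR SE was worked back from the test, as the absolute log2 difference divided by the square root of its F statistic. Per-kilobase levels used GENCODE M21 transcript lengths.

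The 8 genes and all lists were chosen with earlier results of these data known. Other genes named were list members past the threshold, defining markers of other tissues and the 8 genes closest to Ttr. Nes, Sox2, Pax6, Fgf23 and Rbp4 were chosen after their values were seen.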

Additional observations from a re-analysis of the deposited data

Results flagged for a closer look

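Kl had opposite differences between the genotypes in the 2 pairs of libraries: log2 −4.27 within number 1, on 11 counts in WT 1 and 0 in Lbx1Δ/Δ 1, and 0.33 within number 2, on 18 and 23 counts. The difference between these values was not tested. Its fitted log2 difference, −0.24, was 0.77 without Lbx1Δ/Δ 1, 0.31 without WT 2 and −6.87 without Lbx1Δ/Δ 2.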

How the results depend on the processing

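Genotype called 0 genes in edgeR in all settings tried except with the replicate block, which called 92 of 10757 (29 higher, 63 lower). Among the 92 were 1 gene of the wider choroid plexus list, 2 of mesenchyme and 1 of liver. The choice of the 6 choroid plexus genes used this contrast, so their calls with the block are not a result and are not given. Deviations of same-numbered libraries from their group means correlated at r = 0.62 over 10757 genes, but the labels state no pairing. The calls between numbers ran from 1 to 3917 genes when 1 library was left out, in fits with no genotype term: 1 without WT 1, 6 without Lbx1Δ/Δ 1, 2387 without Lbx1Δ/Δ 2 and 3917 without WT 2, against 3833 with all 4. DESeq2 called 2592 and the fit with no genotype term 2739, without Kl, Lbx1, Cldn1, Slc12a2, Dct and Pmel. The direction between numbers turned for Slc15a2 without WT 2 (−0.61) and without Lbx1Δ/Δ 1 (−0.35), and for Aqp1 without WT 1 (0.068). Left-out fits put Slc15a2 between −0.61 and 1.38 and Aqp1 between −0.72 and 0.068, and Slc15a2 passed without Lbx1Δ/Δ 2 (0.80) and Aqp1 without WT 2. The call of Kl was lost in each fit that left out a library. Without Lbx1Δ/Δ 2 the calls of Lbx1, Cldn1, Mcidas, Afp, Dct, Pmel and Aqp3 were also lost, and without WT 2 those of Ecrg4, Mcidas and Aqp5. DESeq2 did not call Ecrg4, Pmel or Aqp5 and gave no adjusted p for Kl, Kcnj13, Ccno, Mcidas, Six3 or Aqp3. The cause was not tested. Low counts limit Kl, Kcnj13 and Ttr in Lbx1Δ/Δ 2.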
